A study of Homo sapiens with 4 samples.

Results

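Genes of glycolysis and of the response to low oxygen were followed in H23, an established human lung cancer cell line (non-small cell), after overexpression of the transcription factor SOX7. The list held 41 genes taken by symbol and chosen with earlier results of these data known: 17 enzymes of glycolysis, 9 regulators and transporters, and 15 other genes that respond to the hypoxia-inducible factors (HIF). They stood among 20046 genes with a named probe, of which 12804 were bright enough to be tested. A named probe existed for 38 of the 41 and 36 were tested. PDK1 and EGLN3 lay below the intensity filter, and SLC16A1, SLC16A3 and CA9 had no named probe and were not analysed here.

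The samples were 2 of H23 cells overexpressing SOX7 and 2 of H23 cells overexpressing green fluorescent protein (GFP) as the control, so both groups carried an introduced gene. PolyA RNA of nearly confluent cells was read on Illumina HumanHT-12 v4 BeadChips, 1 array per sample, as log2 intensities of 48107 probes. No label gives the oxygen tension or the medium. Nor do they say whether the samples were grown as separate cultures; p-values therefore rest on a spread between samples that may be technical, and precision is limited by having 4 arrays. H1299 and PC14 cells, which the study design also names, were not analysed here.

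Arrays of the same group correlated at r = 0.995 over all probes and arrays of different groups at 0.990. The SOX7 probe read 6.53 and 6.78 on the SOX7 arrays, against 6.18 and 6.45 on the control arrays (log2 fold change 0.34, SE 0.115; limma adjusted p = 0.0583). It was not past the threshold, and whether it lies in the introduced transcript is unknown here, so it checks neither the labels nor the level of overexpression. The difference was past the threshold without SOX7 replicate 1 (0.47, adjusted p = 0.0397) and without control replicate 2 (0.48, adjusted p = 0.00996), with trend and robust estimation (adjusted p = 0.0487) and with the replicate number as a block (adjusted p = 0.00906). Of 6 epithelial markers, KRT7, KRT8, KRT18 and EPCAM were above the filter, of which KRT18 was higher in SOX7 cells (0.45, adjusted p = 0.00453), while KRT19 and CDH1 were below it. KRT7 (means of 6.34 in SOX7 and 6.37 in control cells) and EPCAM (6.65 and 6.52) lay near the array median of 6.26. The lung markers NKX2-1, NAPSA, SFTPB and SFTPC were all below the filter in this line. Of the markers of other cell types, the 4 endothelial ones and PTPRC and CD3E were below it too. CD68, a lysosomal protein also used as a macrophage marker, was above it and lower in SOX7 cells (9.46 and 9.39, against 10.63 and 10.30 in control cells; log2 fold change -1.04, adjusted p = 5.07e-05; -0.54 for the mean of its probes).

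In glycolysis, hexokinases trap glucose in the cell, phosphofructokinases commit it to breakdown, and the enzymes from aldolase to pyruvate kinase yield ATP and pyruvate, which lactate dehydrogenase turns into lactate. When oxygen is scarce, the prolyl hydroxylases that mark HIF for destruction through the VHL ubiquitin ligase slow down, and HIF raises many of these enzymes together with genes of angiogenesis, pH control and mitophagy. HIF binds short DNA elements with the core ACGTG or GCGTG. Cancer cells often keep glycolysis high with oxygen present, and several steps have isozymes that tissues use differently.

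Among the 36 tested genes, 6 rose and 10 fell in SOX7 cells at a Benjamini-Hochberg adjusted p under 0.05 over all genes tested. That is 16 of 36 genes, beside 18.8% of all 12804 genes. In single directions the background was 8.98% of all genes higher and 9.83% lower. The changes were small: the largest was 1.54-fold, and the smallest called was 1.21-fold, with standard errors from 0.0855 to 0.106 on the log2 scale over the tested members. Arrays of the groups did not overlap for 29 of the 36, beside 58.5% of all genes. In a refit on only the genes above the 75th percentile of intensity, 18 of 33 members were past the threshold, beside 33.4% of the 7918 genes. The refit also changed the variance prior and the number of tests, so its shares do not reflect brightness alone.

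The classes of gene differed in their counts, set beside 8.98% of all genes higher and 9.83% lower. Of 17 enzymes, 3 rose (17.6%) and 4 fell (23.5%), with a median log2 fold change of -0.0048. Of 6 tested regulators and transporters, 3 rose and 1 fell, with a median of 0.28. Of 13 tested hypoxia genes outside glycolysis, 0 rose and 5 fell (38.5%), with a median of -0.19, beside a median of 0.0035 over all genes tested. With 13 genes, 0 rising is not far from a share of 8.98%. In the refit above the 75th percentile, 7 of 16 enzymes, 5 of 5 regulators and transporters and 6 of 12 other hypoxia genes passed, beside 33.4%. A further 15 tested HIF targets that are not members had a median of -0.026, with 7 above 0 and 8 below. At an unadjusted p under 0.05, CA12 was the only one of the 13 higher in SOX7 cells (0.25). With each gene centred on its mean over the 4 arrays, the median of the hypoxia genes was -0.087 and -0.11 on the SOX7 arrays, against 0.13 and 0.069 on the control arrays. That of the enzymes was -0.026 and 0.018 on the SOX7 arrays, against -0.0085 and 0.0086 on the control arrays. For the regulators and transporters it was 0.15 and 0.048 on the SOX7 arrays, against -0.15 and -0.10 on the control arrays. The medians of the groups thus lay apart for the hypoxia genes and, in the other direction, for the regulators and transporters, and overlapped for the enzymes. The difference between the classes was not tested.

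**Figure D1:**
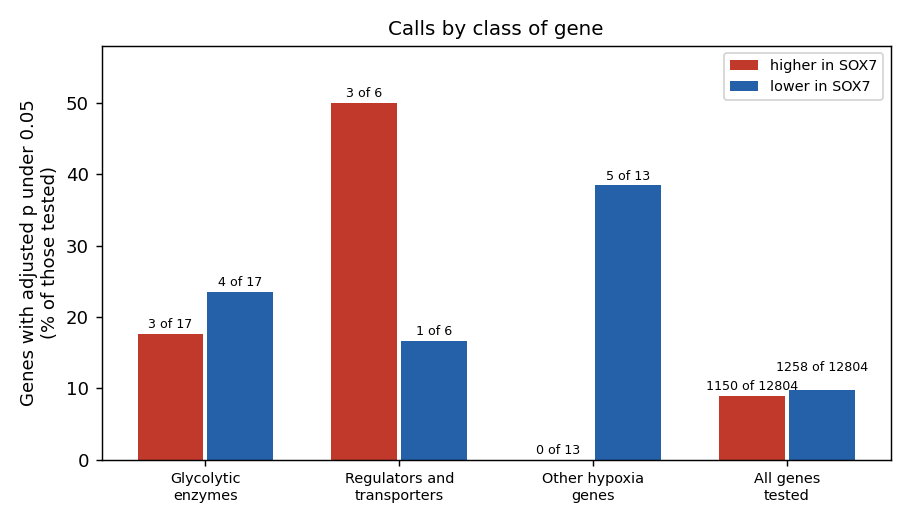
Share of tested genes with an adjusted p under 0.05, in % (vertical axis), higher (red) or lower (blue) in SOX7 than in control cells, for the 3 classes and all genes tested. Numbers above the bars are counts: the other hypoxia genes have 0 of 13 higher and 5 of 13 lower, while the enzymes have 3 and 4 of 17.

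**Figure D2:**
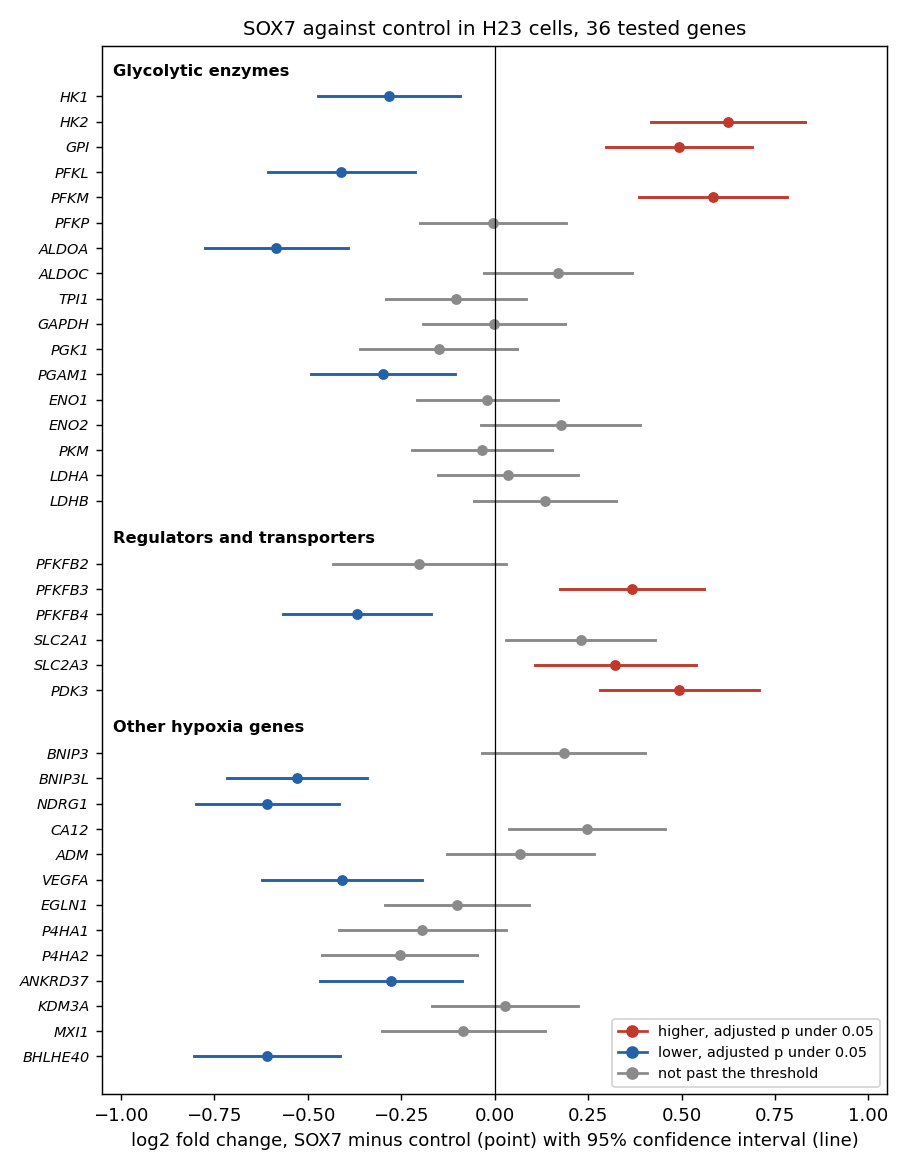
Log2 fold change, SOX7 minus control, of the 36 tested genes with 95% confidence intervals from limma (horizontal axis), grouped by class. Red points were higher and blue points lower at an adjusted p under 0.05, and all lie within 1 log2 unit of 0.

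The promoters of BHLHE40, ANKRD37, HK2 and LDHA are shown because they set genes that fell, rose or did not pass beside the HIF core motif. All of them hold ACGTG, so they do not stand for the promoters of their groups. Each runs 5′ to 3′ from 250 bases before the annotated start to 50 after it, from RefSeq, build GRCh38.p14, plus strand, with every ACGTG or GCGTG on either strand in capitals. BHLHE40 (chr3:4979187-4979486) and ANKRD37 (chr4:185396591-185396890) are hypoxia genes that fell. HK2 (chr2:74833877-74834176) is an enzyme gene that rose, and LDHA (chr11:18394313-18394612) an enzyme gene that did not pass.
BHLHE40: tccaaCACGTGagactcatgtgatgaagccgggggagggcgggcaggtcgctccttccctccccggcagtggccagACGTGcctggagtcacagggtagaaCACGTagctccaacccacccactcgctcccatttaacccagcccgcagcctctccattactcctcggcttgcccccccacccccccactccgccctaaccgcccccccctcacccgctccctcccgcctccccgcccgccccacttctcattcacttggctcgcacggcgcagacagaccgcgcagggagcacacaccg
ANKRD37: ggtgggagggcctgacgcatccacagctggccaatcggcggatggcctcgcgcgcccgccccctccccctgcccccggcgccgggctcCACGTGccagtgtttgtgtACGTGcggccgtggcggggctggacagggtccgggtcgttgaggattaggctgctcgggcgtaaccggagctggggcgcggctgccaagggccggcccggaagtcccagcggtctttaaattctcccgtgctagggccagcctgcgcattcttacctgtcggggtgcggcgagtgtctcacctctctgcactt
HK2: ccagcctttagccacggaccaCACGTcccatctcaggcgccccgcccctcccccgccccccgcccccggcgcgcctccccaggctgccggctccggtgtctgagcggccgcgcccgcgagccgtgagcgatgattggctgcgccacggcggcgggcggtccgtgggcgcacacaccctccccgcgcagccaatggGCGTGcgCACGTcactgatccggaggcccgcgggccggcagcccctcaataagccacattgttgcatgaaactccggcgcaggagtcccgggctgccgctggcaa
LDHA: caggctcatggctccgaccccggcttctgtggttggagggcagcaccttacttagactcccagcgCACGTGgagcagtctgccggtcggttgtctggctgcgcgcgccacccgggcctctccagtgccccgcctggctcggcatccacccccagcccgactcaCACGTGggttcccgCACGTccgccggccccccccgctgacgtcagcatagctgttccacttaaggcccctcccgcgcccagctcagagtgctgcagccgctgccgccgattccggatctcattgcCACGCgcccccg
Counting both strands, ACGTG matched 4 times in BHLHE40, 3 times in ANKRD37, 2 times in HK2 and 5 times in LDHA. The palindrome CACGTG holds the motif on each strand and counts 2 times; it occurred 1 time in BHLHE40, 1 time in ANKRD37, 2 times in LDHA and 0 times in HK2. The window was available for 35 of the 41 genes. It was missing for PFKFB2, SLC2A3, SLC16A1, BNIP3L, NDRG1 and VEGFA. BHLHE40 and ANKRD37 were thus the only other hypoxia genes that fell with a window. ACGTG was in 15 of the 35, beside 26.5% of the 10193 promoters of tested genes and 21.6% of all 27305 promoters. GCGTG was in 16 of the 35, beside 49.9% and 36.3%. The median GC content was 68.7% in the 35 and 64.7% in the promoters of tested genes. ACGTG was in 3 of the 5 promoters available for genes that rose and in 3 of the 7 for genes that fell. It was absent from PFKM and PFKFB3, which rose, and from HK1, PFKL, PFKFB4 and PGAM1, which fell. AACAAT, a core motif of SOX factors, was in 3 of the 35 (HK2, KDM3A and EGLN3), beside 5.51% of the promoters of tested genes and 10.3% of all promoters. These are letter matches in a short window and not measured binding sites.

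In the upper part of glycolysis, isozymes of the hexokinase and phosphofructokinase steps moved in opposite directions. Of the 8 genes from hexokinase to aldolase, 3 rose and 3 fell, beside 18.8% of all genes called. All 8 lay above the 75th percentile of intensity, where the refit called 33.4% of genes. The division of the pathway into an upper and a lower part was chosen after the values were seen. HK2, the inducible hexokinase of muscle and many tumours, read 7.79 and 7.94 on the SOX7 arrays, against 7.30 and 7.18 on the control arrays. Both SOX7 arrays lay above both control arrays, a rise of 1.54-fold (log2 fold change 0.62, SE 0.0943; limma adjusted p = 7.43e-04). HK1, the widely expressed hexokinase, read 10.85 and 10.82 on the SOX7 arrays, against 11.08 and 11.15 on the control arrays. It was lower on both SOX7 arrays, by 1.22-fold (-0.28, adjusted p = 0.0414), and the call ended when any 1 of the 4 arrays was left out (adjusted p from 0.0718 without control replicate 1 to 0.172 without control replicate 2). GPI, which converts glucose phosphate to fructose phosphate and is encoded by a single gene, read 10.38 and 10.35 in SOX7 cells, against 9.94 and 9.81 in control cells. It rose 1.41-fold (0.49, SE 0.0896; adjusted p = 0.00249).

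Phosphofructokinase, the committing step, has muscle, liver and platelet subunits. The muscle gene PFKM read 10.65 and 10.51 on the SOX7 arrays, against 9.97 and 10.01 on the control arrays. It rose with no overlap (log2 fold change 0.58, SE 0.0907; adjusted p = 8.70e-04). The liver gene PFKL read 7.76 and 7.71 in SOX7 cells, against 8.08 and 8.20 in control cells. It fell 1.33-fold (-0.41, SE 0.0898; adjusted p = 0.00780), a call that ended without SOX7 replicate 2 (-0.38, adjusted p = 0.0526). The platelet gene PFKP read 11.51 and 11.58 in SOX7 cells, against 11.60 and 11.50 in control cells. Its groups overlapped, with a difference of -0.0048 (95% confidence interval -0.20 to 0.19). ALDOA, the main aldolase of muscle and tumours, which splits fructose bisphosphate, read 12.41 and 12.50 in SOX7 cells, against 13.05 and 13.03 in control cells. It fell (log2 fold change -0.58, SE 0.0877; adjusted p = 7.12e-04). ALDOC, the aldolase of brain, read 7.75 and 7.62 in SOX7 cells, against 7.55 and 7.48 in control cells, a difference of 0.17 (interval -0.029 to 0.37) that did not pass.

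From triose phosphate isomerase to lactate dehydrogenase, 1 of 9 genes passed, and it fell, a share of 11.1% beside 18.8% of all genes. All of them but ENO2 lay above the 75th percentile of intensity, where the refit called 33.4% of genes. PGAM1, the phosphoglycerate mutase of most tissues, read 11.32 and 11.42 on the SOX7 arrays, against 11.67 and 11.66 on the control arrays. It fell 1.23-fold (-0.30, SE 0.088; adjusted p = 0.0344), and the call ended without any 1 of the 4 arrays (adjusted p from 0.0639 without SOX7 replicate 2 to 0.166 without SOX7 replicate 1). GAPDH, often used as a reference transcript, read 14.48 and 14.55 in SOX7 cells, against 14.51 and 14.53 in control cells. The groups overlapped, and the difference of -0.0014 had an interval of -0.19 to 0.19. The enolase ENO1 differed by -0.019 (interval -0.21 to 0.17), the pyruvate kinase PKM by -0.034 (-0.22 to 0.15) and LDHA, the lactate dehydrogenase subunit that favours lactate, by 0.037 (-0.15 to 0.22). PGK1, a kinase step that yields ATP, differed by -0.15 (-0.36 to 0.059). For LDHB, the subunit of heart and oxidative tissues, the difference was 0.13 (-0.056 to 0.32), and for ENO2, the neuronal enolase, 0.18 (-0.035 to 0.39). These intervals do not reach 1.54-fold, the size of the HK2 change. TPI1 differed by -0.10 (-0.29 to 0.085) on its brightest probe.

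**Figure D3:**
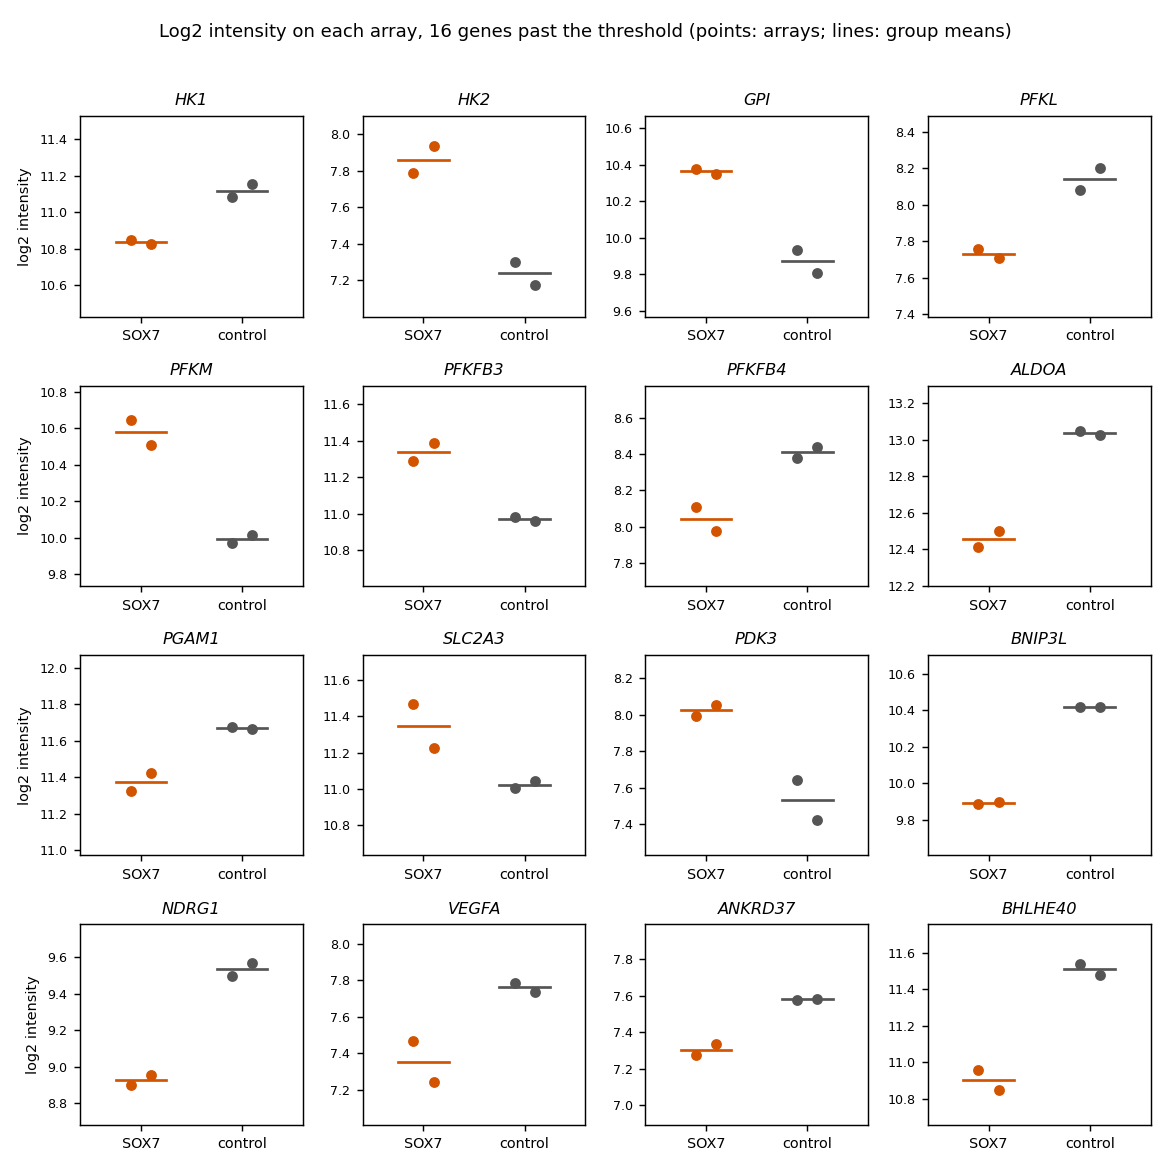
Log2 intensity (vertical axis, the same span in each panel) of the 16 genes past the threshold on each array, SOX7 at the left and control at the right. Points are single arrays and lines are group means of 2 arrays; in none of the 16 panels do the groups overlap.

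The bifunctional PFKFB enzymes make and remove a fructose bisphosphate that activates phosphofructokinase, and their genes diverged. PFKFB3, the isozyme with the strongest kinase activity, read 11.29 and 11.39 in SOX7 cells, against 10.98 and 10.96 in control cells. It rose 1.29-fold (0.37, SE 0.0881; adjusted p = 0.0128), a call that ended without SOX7 replicate 2 (0.32, adjusted p = 0.0883). PFKFB4 read 8.11 and 7.98 in SOX7 cells, against 8.38 and 8.44 in control cells. It fell 1.29-fold (-0.37, SE 0.0906; adjusted p = 0.0147), a call that ended without SOX7 replicate 2 (-0.30, adjusted p = 0.107) and without control replicate 2 (-0.34, adjusted p = 0.0591). PFKFB2, the heart isozyme, read 6.25 and 6.47 in SOX7 cells, against 6.67 and 6.46 in control cells, close to the array median of 6.26, with overlapping groups.

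Glucose enters through the SLC2A carriers. SLC2A3 (GLUT3), a high-affinity carrier, read 11.47 and 11.23 on the SOX7 arrays, against 11.01 and 11.04 on the control arrays. It rose 1.25-fold (0.32, SE 0.099; adjusted p = 0.0401), and its call ended without SOX7 replicate 1 (0.20, adjusted p = 0.253), control replicate 1 (0.31, adjusted p = 0.106) or control replicate 2 (0.34, adjusted p = 0.0669). SLC2A1 (GLUT1), the carrier most widely used by tumours, read 8.85 and 8.73 in SOX7 cells, against 8.51 and 8.61 in control cells. The groups did not overlap, but the difference of 0.23 (0.030 to 0.43) did not pass (adjusted p = 0.104). PDK3, a kinase that turns off pyruvate dehydrogenase and so holds pyruvate back from acetyl-CoA and the citric acid cycle, read 7.996 and 8.05 in SOX7 cells, against 7.64 and 7.42 in control cells. It rose 1.41-fold (0.49, SE 0.0973; adjusted p = 0.00413). PDK1, the kinase best known as a HIF target, read 6.26 and 6.10 in SOX7 cells, against 6.24 and 6.07 in control cells, below the filter level of 6.25, and was not tested.

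Among the hypoxia genes outside glycolysis, those that passed all fell. BHLHE40 (DEC1), a transcriptional repressor that HIF and the circadian clock drive, read 10.96 and 10.85 in SOX7 cells, against 11.54 and 11.48 in control cells. It fell 1.53-fold (-0.61, SE 0.0893; adjusted p = 6.15e-04). NDRG1, a stress-response gene widely used as a hypoxia marker, read 8.90 and 8.96 in SOX7 cells, against 9.50 and 9.57 in control cells. It fell 1.52-fold (-0.61, SE 0.0875; adjusted p = 5.48e-04). BNIP3L (NIX), a mitochondrial receptor for mitophagy, read 9.88 and 9.90 in SOX7 cells, against 10.42 and 10.42 in control cells. Each pair of arrays was nearly identical, and the gene fell 1.44-fold (-0.53, SE 0.0855; adjusted p = 0.00115). Its relative BNIP3 read 10.85 and 10.90 in SOX7 cells, against 10.57 and 10.81 in control cells, and did not pass (0.19, interval -0.032 to 0.40).

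VEGFA, the main angiogenic growth factor, read 7.46 and 7.24 on the SOX7 arrays, against 7.78 and 7.74 on the control arrays. It fell 1.33-fold (-0.41, SE 0.0978; adjusted p = 0.0128), a call that ended without SOX7 replicate 2 (-0.30, adjusted p = 0.112). ANKRD37, an ankyrin repeat protein induced by HIF, read 7.27 and 7.33 in SOX7 cells, against 7.57 and 7.58 in control cells. It fell 1.21-fold (-0.28, SE 0.0864; adjusted p = 0.0434), and the call ended without any 1 of the 4 arrays (adjusted p from 0.0979 without SOX7 replicate 2 to 0.169 without SOX7 replicate 1). P4HA2, a collagen prolyl hydroxylase, read 8.70 and 8.87 in SOX7 cells, against 9.09 and 8.98 in control cells. It did not pass (-0.25, interval -0.46 to -0.046; adjusted p = 0.0861), and passed with the filter at the 75th percentile (adjusted p = 0.0376), for the mean of its probes (0.0472) and with trend and robust estimation (0.0443). Its relative P4HA1 differed by -0.19 (-0.42 to 0.030).

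The remaining hypoxia genes did not pass. CA12, a membrane carbonic anhydrase, read 6.65 and 6.72 in SOX7 cells, against 6.34 and 6.54 in control cells (0.25, interval 0.038 to 0.46; adjusted p = 0.0960). It passed without control replicate 2 (0.35, adjusted p = 0.0488). The vasodilator peptide gene ADM, among the brighter hypoxia genes at 12.02 and 12.16 in SOX7 cells and 12.01 and 12.03 in control cells, differed by 0.069 (-0.13 to 0.27). The oxygen-sensing hydroxylase EGLN1 (PHD2) differed by -0.10 (-0.29 to 0.092), the histone demethylase KDM3A by 0.028 (-0.17 to 0.22) and the MYC antagonist MXI1 by -0.083 (-0.30 to 0.14). EGLN3 (PHD3) read 5.86 and 5.99 in SOX7 cells, against 5.94 and 5.98 in control cells, below the filter. No detection measure was used, so a level near the array median is not separated from background.

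Of the 16 calls, 8 held whichever array was left out: HK2, GPI, PFKM, ALDOA, PDK3, BNIP3L, NDRG1 and BHLHE40. The other 8 were lost in at least 1 of these 4 fits. In such a fit the lone array of a group takes its spread from the other group.

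Further probes of a gene gave a second reading. For genes past the threshold, 8 further probes lay above the filter, all 8 in the direction of the first, and 4 of them passed in a fit over all probes with 1 gene. ALDOA fell on its second probe by 0.67 on the log2 scale (adjusted p = 2.87e-04), with 11.66 and 11.59 in SOX7 cells, against 12.27 and 12.32 in control cells. PDK3 rose by 0.72 on its second probe (adjusted p = 2.51e-04), PFKFB3 by 0.51 (0.00366), and BNIP3L fell by 0.42 (0.0151). The second probes of HK2 (0.33, adjusted p = 0.0677), PGAM1 (-0.23, 0.117) and VEGFA (-0.14, 0.385) and the third of ALDOA (-0.34, 0.0873) did not pass. All 3 GAPDH probes lay between -0.0014 and 0.032. Among genes not past the threshold, 1 of 10 further probes passed: the second TPI1 probe read 12.75 and 12.82 in SOX7 cells, against 12.44 and 12.33 in control cells (0.40, adjusted p = 0.0106). The brightest TPI1 probe read 13.80 and 13.75 in SOX7 cells, against 13.87 and 13.89 in control cells, so its direction was opposite. Probes of LDHA (0.037 on the brightest, -0.12 and -0.15 on the others) and PKM (-0.034 on the brightest, 0.056 and 0.14) also differed in sign, without passing. The probe sequences were not used here, so which transcript forms or related genes each probe reads was not tested.

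**Figure D4:**
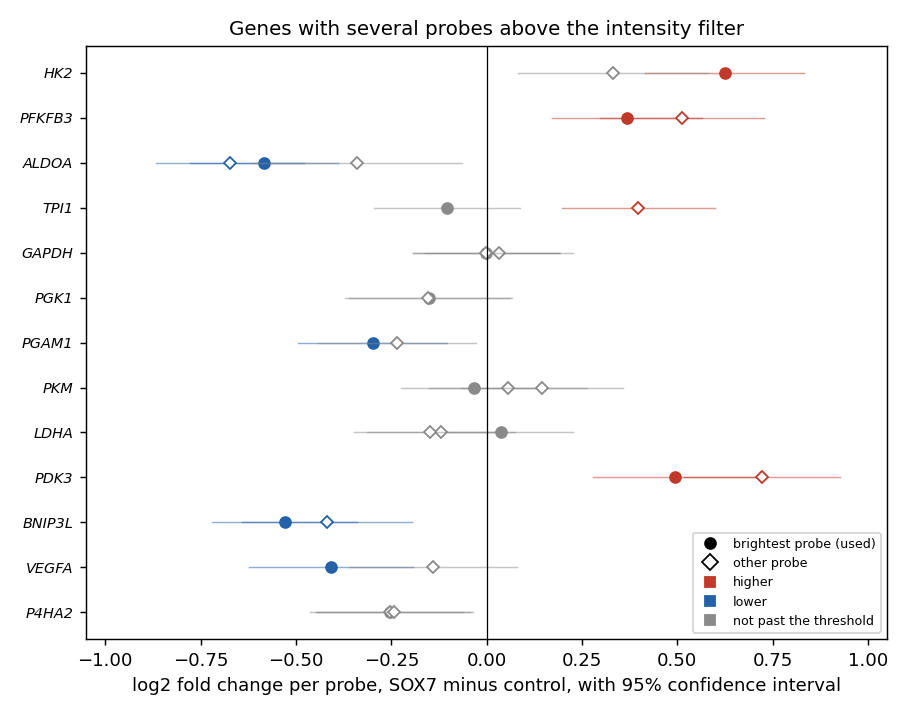
Log2 fold change, SOX7 minus control, with 95% confidence intervals (horizontal axis), of each probe above the filter for the 13 genes with several such probes. Filled circles are the brightest probes and open diamonds the others. The 2 TPI1 probes lie on opposite sides of 0, probes of LDHA and PKM also lie on both sides, and the 3 ALDOA probes all lie below it.

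Some members lay in stretches of a chromosome where neighbouring genes shifted together. A median log2 fold change was taken over a member and its neighbouring tested genes, 50 on each side where the chromosome allowed. Near a chromosome end the window was moved inward, so it was not centred on the member and reached further to one side. This median was -0.13 at PFKL and PFKFB4, -0.12 at BHLHE40, -0.10 at ALDOA and 0.11 at PFKM. With that median removed, BHLHE40 (-0.49, adjusted p = 0.00287), ALDOA (-0.48, adjusted p = 0.00267) and PFKM (0.47, adjusted p = 0.00395) still passed. PFKL (-0.28, adjusted p = 0.0533) and PFKFB4 (-0.23, adjusted p = 0.101) did not. Nor did HK1 (-0.24, adjusted p = 0.0812), where the median removed was only -0.043 and the adjusted p before removal was 0.0414.

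Of 14 tested genes of the HIF pathway itself, 0 rose and 1 fell, a share of 7.14%, beside 18.8% of all genes in either direction. VHL, which encodes the recognition subunit of the ligase that degrades HIF, read 8.67 and 8.71 on the SOX7 arrays, against 9.24 and 9.13 on the control arrays. It fell 1.41-fold (-0.50, SE 0.089; adjusted p = 0.00221), and with the neighbouring genes' median of -0.12 removed it differed by -0.38 (adjusted p = 0.0124). The oxygen-regulated subunits differed by 0.021 for HIF1A (interval -0.17 to 0.21) and -0.098 for EPAS1 (-0.31 to 0.11), and their partner ARNT by -0.0042. RBX1, a further subunit of the ligase, differed by -0.30 without passing (adjusted p = 0.0516). Among 15 other HIF targets tested, 0 rose and 2 fell, beside 9.83% of all genes lower. TMEM45A, a transmembrane protein gene, read 7.78 and 7.59 in SOX7 cells, against 8.32 and 8.32 in control cells, and fell 1.55-fold (-0.63, adjusted p = 6.41e-04). DDIT4 (REDD1), an inhibitor of mTOR, fell 1.26-fold (-0.33, adjusted p = 0.0373), a call that ended without SOX7 replicate 2 (-0.22, adjusted p = 0.243) or control replicate 1 (-0.28, adjusted p = 0.141), and with neighbouring genes' median removed (-0.28, adjusted p = 0.0772). In the same limma fit, STC2 (0.25) and INSIG2 (0.26) were higher at an unadjusted p under 0.05 without passing. HILPDA (-0.026), FAM162A (0.026) and ERO1A (-0.081) did not pass either.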

How the data were processed

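Each of the 4 Illumina HumanHT-12 v4 arrays has log2 intensities of 48107 probes as deposited, per the labels and the values. Sorted, the 4 columns matched within 0.000683, which shows quantile normalization by the authors; their software, background correction and detection calls are not given in the sources used. Sample titles gave the groups. GEO's platform annotation assigned 1 gene to 30113 probes, several to 8 and none to 17986, and 30074 were matched to RefSeq (GRCh38.p14) by gene identifier.

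The brightest probe stood for each gene, and genes below the median of probe means (6.25) were dropped. The groups were compared in limma 3.58.1 (R 4.3.3; lmFit and eBayes; 2 residual and 11.7 moderated degrees of freedom). Tests were two-sided, adjusted by Benjamini-Hochberg over the 12804 genes, with a threshold of 0.05. Log2 fold changes are SOX7 minus control. Members and gene lists were chosen with earlier results of these data known; all members are named, and up to 4 called genes of each further list. On simulated arrays of 12804 genes with 200 changed, 91.5% of 1.5-fold and 99.7% of 2-fold changes were recovered, with 6.44% false calls. Far fewer genes were changed there than the 2408 called in the data. Changes under 1.5-fold were not simulated, so recovery of the smaller changes called here is not known. Alternatives were other filters, the mean of probes, another variance prior, the replicate number as a block, other scalings, an offset of 16, removal of neighbouring genes' median, a threshold of 0.01 and leaving out each array.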

Additional observations from a re-analysis of the deposited data

How the results depend on the processing

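Beside the 4 fits without 1 array, 9 alternatives were run for the members, and no member past the threshold changed direction in any of them. Leaving out each array in turn gave 1486 to 1937 genes past the threshold over all genes, against 2408 with 4 arrays. For the members it gave 9 to 12, against 16, with 9 (5 higher, 4 lower) without SOX7 replicate 2. The same fits gave 4 to 5 enzymes, against 7, then 2 to 3 regulators and transporters, against 4, and 3 to 5 other hypoxia genes, against 5. The lowest counts of the classes came without SOX7 replicate 2, equalled for regulators and transporters without control replicate 2 (2 genes). Without control replicate 2 the other hypoxia genes had 1 higher (CA12) and 4 lower. The median log2 fold change over these fits ran from -0.036 to 0.032 for the enzymes, changing sign (0.010 for the mean of probes), and from -0.22 to -0.14 for the other hypoxia genes. At an adjusted p of 0.01, 1224 genes, 9 members, 1 regulator or transporter and 3 other hypoxia genes passed. The median of the other hypoxia genes was -0.15 without an intensity filter, -0.22 with the filter at the 75th percentile, -0.12 for the mean of probes and -0.14 with neighbouring genes' median removed. Without a filter the calls of HK1, PGAM1, SLC2A3 and ANKRD37 ended (adjusted p from 0.0763 to 0.0936, with more genes tested). For the mean of probes, which brings in probes below the filter, those of HK1 (-0.14), PFKL (-0.15) and VEGFA (-0.14) ended. SLC2A1 passed at the 75th percentile filter (adjusted p = 0.0495). Deviations of same-numbered arrays from their group means correlated at -0.017 over the genes tested. That shows no shared deviation by replicate number, but cannot tell whether same-numbered samples were handled together. With the replicate block 2834 genes and 16 members passed. Median centring and quantile normalization left the count at 2408, but the deposited values were already quantile normalized, so neither could change it much.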

Other observations

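Branches that leave glycolysis or feed it moved in both directions. Of 6 tested genes of the pentose phosphate pathway, which makes NADPH and ribose from glucose phosphate, 2 rose and 1 fell. The shares over all genes were 8.98% higher and 9.83% lower. RPIA read 10.87 and 10.85 in SOX7 cells, against 10.40 and 10.60 in control cells, and rose 1.29-fold (limma adjusted p = 0.0197). RPE rose 1.26-fold (0.34, adjusted p = 0.0176) but differed by 0.010 for the mean of its probes, and PGLS fell 1.27-fold (-0.35, adjusted p = 0.0142). Each of these calls ended when SOX7 replicate 1 was left out (adjusted p = 0.0851 for RPIA, 0.0610 for RPE and 0.0615 for PGLS) or SOX7 replicate 2 (0.0736, 0.0846 and 0.0626 in the same order), and for RPIA (0.145) and RPE (0.0760) also without control replicate 1. With neighbouring genes' median removed, RPIA (0.28, adjusted p = 0.0645) and RPE (0.21, adjusted p = 0.114) did not pass.

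Where pyruvate enters the mitochondria, 1 of 10 tested genes passed, a share of 10% beside 18.8% of all genes. PDP1, a phosphatase that turns pyruvate dehydrogenase on and so opposes the PDK kinases, read 7.49 and 7.32 in SOX7 cells, against 6.84 and 6.77 in control cells, and rose 1.52-fold (0.60, adjusted p = 8.92e-04). PDK3, a kinase with the opposite action, rose too. Its relatives did not pass: PDK2 differed by -0.26 (adjusted p = 0.0539) and PDK4 by 0.10 (adjusted p = 0.541). Of 3 tested genes of gluconeogenesis, a separate list, 1 rose and 1 fell, beside 8.98% of all genes higher and 9.83% lower. The third, G6PC3, differed by -0.24 without passing (adjusted p = 0.0934). PC, pyruvate carboxylase, read 6.90 and 6.90 in SOX7 cells, against 7.41 and 7.57 in control cells. It fell 1.51-fold (-0.59, adjusted p = 8.51e-04), and for the mean of its probes it differed by -0.18 (adjusted p = 0.146). PCK2, the mitochondrial enzyme of gluconeogenesis, rose 1.27-fold (0.35, adjusted p = 0.0274), a call that ended without SOX7 replicate 1 (0.25, adjusted p = 0.180) and without control replicate 2 (0.29, adjusted p = 0.112), for the mean of its probes (0.19, adjusted p = 0.116) and without an intensity filter (adjusted p = 0.0598). Of 5 tested isozymes that are not members, 1 passed (20%), beside 18.8% of all genes. This was the muscle enolase ENO3, which rose 1.27-fold (0.35, adjusted p = 0.0290). Its call ended without SOX7 replicate 1 (0.26) and without control replicate 2 (0.27). It also ended for the mean of its probes (0.22, adjusted p = 0.0708) and without an intensity filter (adjusted p = 0.0625). Of 4 tested genes that control glycolysis, among them MYC (0.011) and TIGAR (0.25, adjusted p = 0.0695), 0 passed in limma, beside 18.8% of all genes. Only 1 of the 4, TIGAR, had an unadjusted p under 0.05.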
